A study of Homo sapiens with 8 samples.

Results

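Histone acetylation is set by enzymes that add acetyl groups to lysines (writers, the lysine acetyltransferases and their coactivators), enzymes that remove them (erasers, the histone deacetylases, HDACs, and the sirtuins) and bromodomain proteins that bind the mark (readers, among them the BET family). The genes described here are 34 of these regulators, chosen by name: 14 writers, 17 erasers, the BET readers BRD2 and BRD3, and the corepressor NCOR1. All 34 symbols were found among the 16796 genes of the count tables, and all 34 were among the 14895 genes tested. Their messenger RNA was measured in LX-2 cells, an immortalised human line of activated hepatic stellate cells that serves as a culture model of liver myofibroblasts (MFs). Cells kept in DMEM with 5% fetal bovine serum received the vehicle DMSO (control, n = 4) or 50 µM OSMI-1 (OGTi, n = 4) for 24 h. OSMI-1 is a small-molecule blocker of O-GlcNAc transferase (OGT), the enzyme that attaches the sugar O-GlcNAc to serines and threonines of intracellular proteins. The comparison asked how RNA levels of the histone acetylation genes differed after OGT inhibition, in a single cell line at a single dose and time.

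Acetyltransferases fall into families that work in different complexes. p300 (EP300) and CBP (CREBBP) acetylate histones at enhancers, the GNAT enzymes KAT2A and KAT2B act within SAGA and ATAC, KAT5 acts within NuA4, and the other MYST enzymes depend on scaffold proteins. Most class I HDACs act in nuclear corepressor complexes, class IIa HDACs shuttle between nucleus and cytoplasm with 14-3-3 proteins, and sirtuins use NAD+ as a cosubstrate.

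The libraries held 24166756 to 28201215 counts each. Transcripts of OGT itself were lower in the OGTi libraries, with a log2 fold change of -0.45 ± 0.09 (SE, q = 1.48e-06 by DESeq2). Those of OGA, the enzyme that removes O-GlcNAc, were also lower, at -1.80 ± 0.09 (SE, q = 1.69e-92 by DESeq2), and the groups did not overlap for either gene. Since OSMI-1 acts on the OGT protein, the OGT transcript is no check of the labels. Markers of stellate cells and MFs, all 10 of which were in the tables, summed to 198000 to 238000 normalized counts in control and 144000 to 167000 in OGTi libraries. Among them LRAT, typical of quiescent stellate cells, and DES had no more than 5.75 in any library. Of 5 macrophage and leukocyte markers 3 were in the tables, and their sum was 2480 to 4080 in control and 5600 to 9390 in OGTi libraries, most of it CD68, whereas the leukocyte gene PTPRC had no more than 11.5. The sums were no more than 74.0 for the 2 of 7 hepatocyte markers in the tables, 91.1 for 3 of 5 endothelial markers and 1270 for 3 of 4 cholangiocyte markers. The part of these markers in the results below was not tested.

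The histone acetylation genes moved in both directions by modest amounts. Of the 34 genes, 18 were called, that is, had a q of 0.05 or lower in a DESeq2 model of all genes with replicate number as a block, and q is the p-value adjusted over all genes by the Benjamini-Hochberg method. This share of 52.9% stood beside 46.6% of all genes with a q, so a call was about as frequent among these genes as elsewhere in the transcriptome. There were 9 genes called higher and 9 called lower, or 26.5% each, against 22.7% and 24.0% of all genes. The OGTi and control libraries did not overlap for 15 of the 34 genes (44.1%), against 38.0% of all genes tested. Log2 fold changes of OGTi over control ranged from -0.67 for KAT5 to 0.85 for SIRT5, with a median of 0.03 beside 0.00 for all genes. No called member reached a 2-fold change, a size that 1200 of all genes called passed. The direction was the same in all 4 replicate pairs for 17 of the 18 called genes, the exception being SIRT1. In bulk RNA, fewer cells of a kind and less RNA per cell cannot be told apart.

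**Figure D1:**
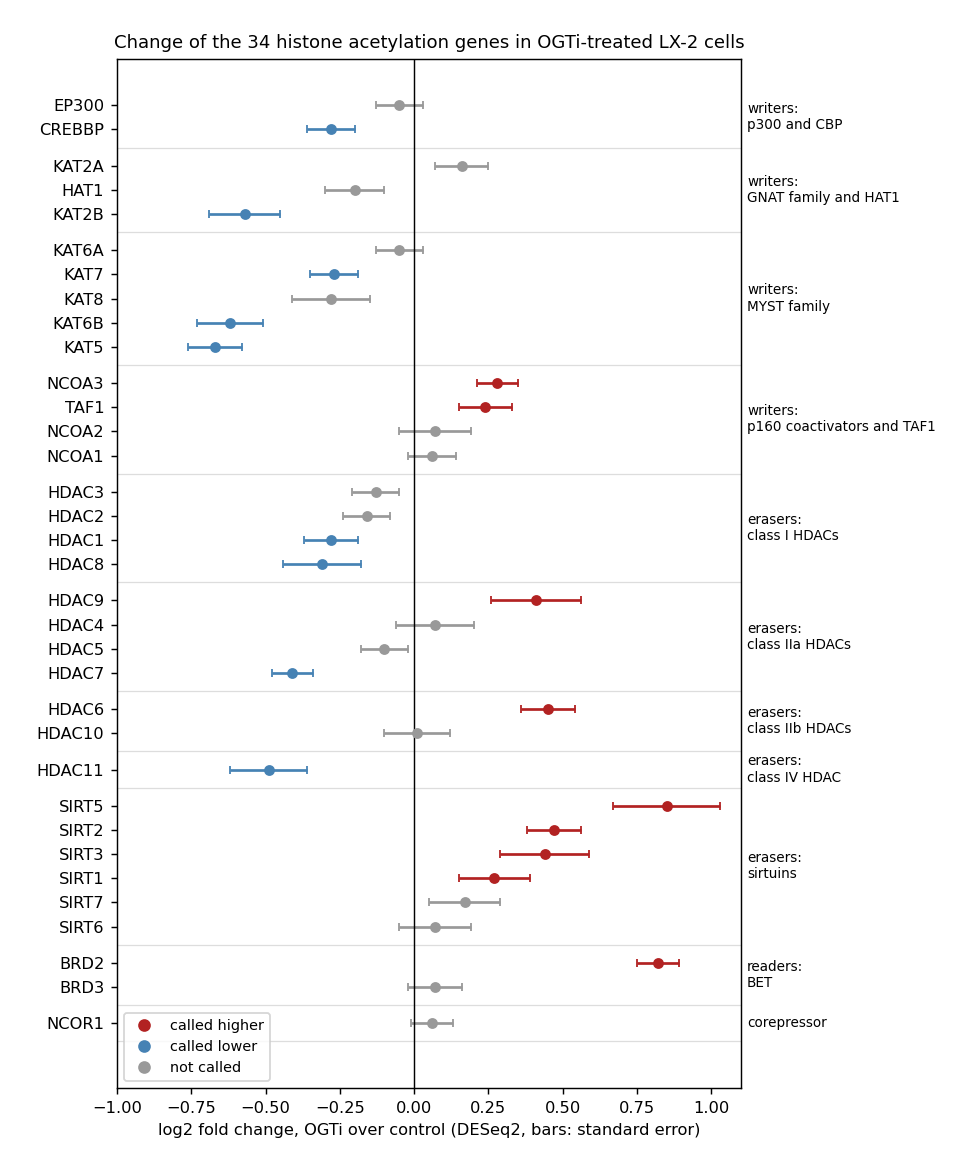
Log2 fold change of OGTi over control for each of the 34 genes, grouped by role, with bars of 1 standard error from DESeq2 (4 control and 4 OGTi libraries). Red points were called higher, blue points called lower and grey points not called. BRD2 and SIRT5 lie farthest to the right, KAT5 and KAT6B farthest to the left, and the sirtuin points all lie to the right of 0.

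By role, 2 of 14 writers were called higher (14.3%) and 5 lower (35.7%), with a median log2 fold change of -0.12. Of 17 erasers, 6 were called higher (35.3%) and 4 lower (23.5%), with a median of 0.07. Over all genes with a q, 22.7% were called higher and 24.0% lower. The erasers called higher included the cytoplasmic HDAC6 and SIRT2 and the mitochondrial SIRT3 and SIRT5, so the counts do not describe nuclear deacetylases alone. Calls of the others, HDAC9 and SIRT1, did not hold in every alternative fit, as given below. Within the erasers, 2 of 11 HDACs were called higher and 4 lower, whereas 4 of 6 sirtuins were called higher and 0 lower. These groups are small, and their shares are descriptions that were not tested against other genes.

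The stretches just upstream of the transcription start are shown for 4 called genes, BRD2 and NCOA3 (higher) and KAT2B and CREBBP (lower). They were chosen among the genes with the largest Wald statistics as those whose 200 upstream bases were free of annotated exons, together with BRD2. Sequences are from RefSeq on GRCh38.p14, 5′ to 3′ on the strand of the gene, and capitals mark matches on either strand to the letters searched. The stretches lie at chr6:32968445-32968593 (plus strand), chr20:47501687-47501886 (plus strand), chr3:20040246-20040445 (plus strand) and chr16:3880714-3880913 (minus strand). The BRD2 stretch was cut to 149 bases, since the bases before it belong to an exon of HLA-DMA on the other strand.
BRD2: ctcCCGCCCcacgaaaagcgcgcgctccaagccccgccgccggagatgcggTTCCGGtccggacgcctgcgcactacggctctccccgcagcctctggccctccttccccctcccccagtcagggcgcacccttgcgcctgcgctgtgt
NCOA3: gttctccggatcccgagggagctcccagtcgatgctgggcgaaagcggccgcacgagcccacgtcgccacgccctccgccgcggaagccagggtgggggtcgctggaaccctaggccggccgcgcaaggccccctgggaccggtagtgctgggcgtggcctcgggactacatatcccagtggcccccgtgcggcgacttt
KAT2B: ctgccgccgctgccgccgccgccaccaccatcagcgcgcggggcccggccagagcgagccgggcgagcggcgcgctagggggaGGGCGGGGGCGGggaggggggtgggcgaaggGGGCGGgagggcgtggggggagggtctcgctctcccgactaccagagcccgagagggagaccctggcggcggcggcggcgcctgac
CREBBP: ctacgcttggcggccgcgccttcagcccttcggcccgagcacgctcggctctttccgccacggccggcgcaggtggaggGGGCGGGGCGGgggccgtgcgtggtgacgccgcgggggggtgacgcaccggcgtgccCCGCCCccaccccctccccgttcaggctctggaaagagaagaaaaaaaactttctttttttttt
Both KAT2B and CREBBP held 3 matches to GGGCGG, the letters of an SP-family site, BRD2 held 1 match to GGGCGG and 1 to CCGGAA, the core of an ETS-family site, and NCOA3 held no match to any of the motifs searched. A promoter was at hand for 29 of the 34 genes. The 200 bases before the RefSeq start of these genes were searched whole, with any annotated exons in them. Of the 12 genes with the largest Wald statistics, only 3 had windows free of annotated exons, and the KAT5 window was exonic over all 200 bases. The counts are thus not of upstream sequence alone. CCGGAA was found in 10 of these 29 promoters (34.5%), against 21.3% of 11479 promoters of genes tested and 12.9% of all 35116 promoters. GGGCGG was found in 14 (48.3%), against 62.5% and 40.1%. The NF-Y letters CCAAT were found in 5 (17.2%), against 30.8% and 28.0%. The TEAD letters GGAATG were in the HDAC8 promoter alone, or 3.45%, against 7.20% of the promoters of genes tested and 9.51% of all promoters. The E-box CACGTG was found in SIRT1 alone (3.45%, against 7.63% of the promoters of genes tested and 5.49% of all promoters) and the AP-1 letters TGANTCA in HDAC9 alone (3.45%, against 3.29% and 5.38%). The NRF1 letters GCGCATGC were found in SIRT5 and SIRT6 (6.90%, against 4.33% and 2.44%), and the CRE letters TGACGTCA in 0 of the 29 (against 2.57% and 1.57%). Of the 10 genes with a CCGGAA match, 3 were called higher (BRD2, TAF1 and SIRT3) and 3 lower (KAT5, KAT7 and HDAC1). Among the 34 genes 26.5% were called in each direction, and among all genes 22.7% were called higher and 24.0% lower. The calls of TAF1, SIRT3 and HDAC1 did not hold in every alternative fit. A link between these letters and a call was not tested.

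Among the p300 and CBP pair, CREBBP was called lower and EP300 was not called. Gene positions are those of GENCODE release 44 on GRCh38. Normalized counts, which are counts divided by the size factor of the library, of CREBBP (chr16:3725054-3880713) were 5953, 6561, 6142 and 6672 in control replicates 1 to 4 and 5641, 5113, 5320 and 4783 in OGTi replicates 1 to 4. All 4 OGTi libraries were below all control libraries, and the log2 fold change was -0.28 ± 0.08 (SE, q = 0.00140). Without replicate 4 the change was -0.22 and CREBBP was no longer called (q = 0.0576). EP300 had 4357, 4792, 5140 and 5241 in control and 5036, 4147, 4644 and 5035 in OGTi libraries, which overlapped widely. Its log2 fold change was -0.05 with a 95% interval of -0.21 to 0.11 (q = 0.645).

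Of the GNAT enzymes, KAT2B, also known as PCAF, was called lower and its paralog KAT2A, also known as GCN5, was not called. KAT2B (chr3:20040446-20154404) went from 624, 820, 694 and 728 normalized counts in control to 453, 467, 522 and 480 in OGTi libraries. It fell by 32.7% and the groups did not overlap (log2 fold change -0.57 ± 0.12, SE, q = 4.77e-06). KAT2A had 2001, 2209, 1962 and 2191 in control and 2493, 2358, 2390 and 2118 in OGTi libraries. Its values leaned upward in 3 of 4 pairs with overlapping groups, and its log2 fold change was 0.16 ± 0.09 (SE, q = 0.116). HAT1, which acetylates newly made histones, had a log2 fold change of -0.20 ± 0.10 (SE, q = 0.0871).

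The MYST family held 3 called genes, all lower, and no gene called higher. KAT5 (chr11:65711996-65719604), the catalytic subunit of NuA4 also known as TIP60, had 1296, 1341, 1262 and 1306 normalized counts in control and 866, 855, 784 and 774 in OGTi libraries. These replicates lay close together within each group, with an SD of 32.4 around the control mean of 1301, and KAT5 fell by 37.0%, more than any other of the 34 genes (log2 fold change -0.67 ± 0.09, SE, q = 3.34e-12). Reads shared with the gene RNASEH2C on the other strand would be kept apart only by the strand of the library, which the study's counting used. The same holds for other genes with exons overlapping on the other strand. These were BRD2, HDAC7, SIRT2, SIRT3, KAT7 and NCOA3 among the called genes, and HDAC5, BRD3 and NCOR1 among the uncalled. KAT6B (chr10:74824927-75032624) had 792, 921, 1087 and 951 in control and 642, 526, 661 and 603 in OGTi libraries, again without overlap (-0.62 ± 0.11, SE, q = 2.49e-07). KAT7 (chr17:49788624-49835026), also known as HBO1, had 2316, 2575, 2616 and 2633 in control and 1994, 2004, 2171 and 2224 in OGTi libraries. Its decrease was smaller, with a log2 fold change of -0.27 ± 0.08 (SE, q = 0.00109), and the groups did not overlap. KAT6A, the paralog of KAT6B, had 3474, 3706, 4360 and 4306 in control and 4032, 3388, 3938 and 3930 in OGTi libraries, with a log2 fold change of -0.05 (95% interval -0.21 to 0.11, q = 0.664). KAT8, the enzyme of the MSL and NSL complexes, had a log2 fold change of -0.28 ± 0.13 and was not called (SE, q = 0.0652), although edgeR with the same block called it (q = 0.0303).

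The p160 coactivators, which bind nuclear receptors and recruit p300 and CBP, gave 1 called gene of 3, beside 46.6% of all genes called. NCOA3 (chr20:47501887-47656877) had 2173, 2560, 2626 and 2472 normalized counts in control and 2845, 3001, 3045 and 3047 in OGTi libraries. Every OGTi library exceeded every control library, and the log2 fold change was 0.28 ± 0.07 (SE, q = 5.67e-04). NCOA1 had 1603, 1774, 1905 and 2083 in control and 1754, 1819, 2009 and 2068 in OGTi libraries (0.06, 95% interval -0.10 to 0.21, q = 0.580). NCOA2 had 704, 940, 1084 and 888 in control and 937, 812, 1011 and 1005 in OGTi libraries (0.07, 95% interval -0.16 to 0.29, q = 0.663). Both overlapped fully between the groups. TAF1, the largest subunit of the general factor TFIID, had 1114 to 1439 in control and 1458 to 1594 in OGTi libraries with a log2 fold change of 0.24 ± 0.09 (SE, q = 0.0170). The call for TAF1 was lost without replicate 1 (q = 0.116), without replicate 2 (q = 0.0942) and without replicate 4 (q = 0.0573).

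**Figure D2:**
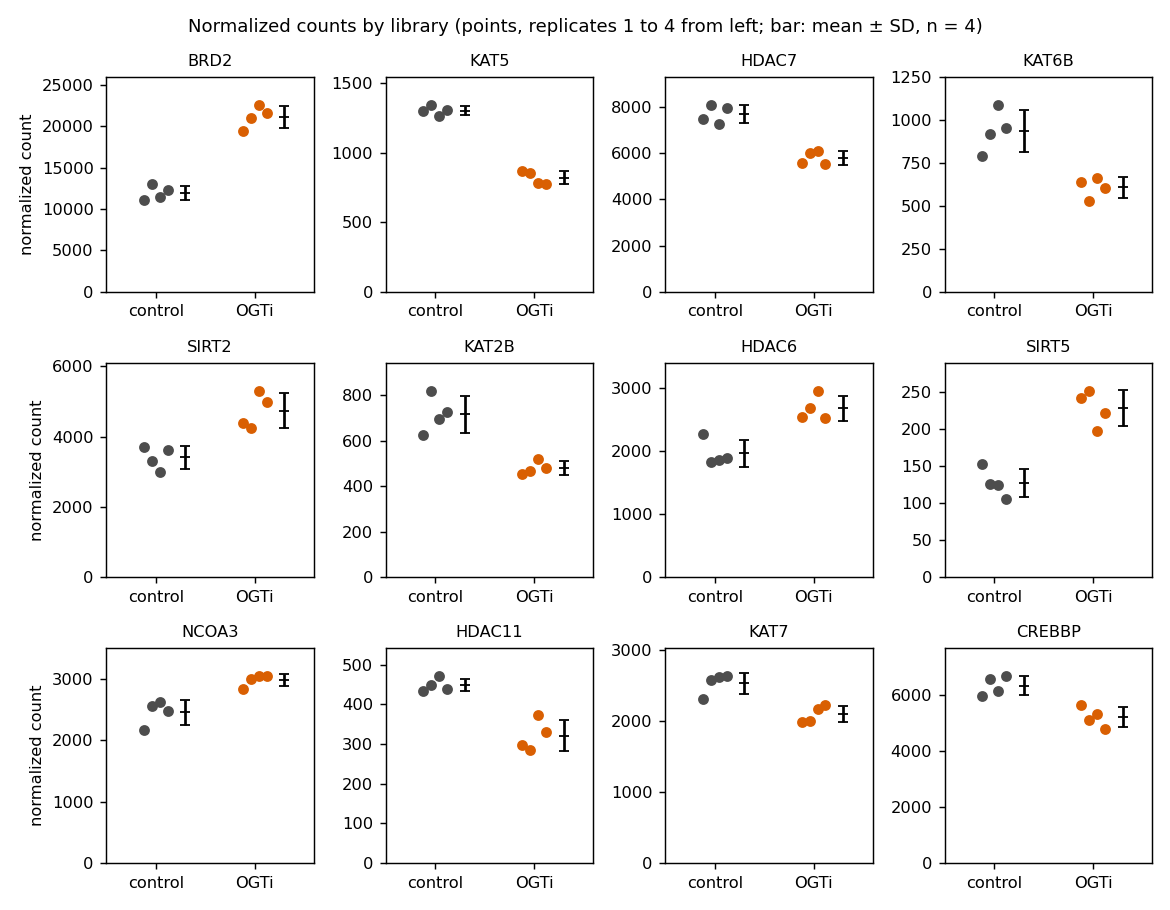
Normalized counts in each library for the 12 genes with the largest absolute Wald statistic, 1 panel per gene with its own axis from 0. Points are libraries of replicates 1 to 4 and bars are the mean ± SD of 4 libraries. In each of the 12 panels the 4 OGTi points lie wholly above or wholly below the 4 control points, which for SIRT5 are 106 to 153 against 198 to 252. The choice by Wald statistic favours such separation, which 38.0% of all genes tested also showed.

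Among the 4 class I HDACs, HDAC1 and HDAC8 were called lower (50.0%, against 24.0% of all genes) and none was called higher. HDAC1, which with HDAC2 is a catalytic subunit of the NuRD, SIN3 and CoREST complexes, had 2639, 2624, 2617 and 2747 normalized counts in control and 1768, 2343, 2430 and 2274 in OGTi libraries. OGTi replicate 1 was well below the other OGTi libraries, and the log2 fold change of -0.28 ± 0.09 (SE, q = 0.00590) became -0.18 without replicate 1, where HDAC1 was no longer called (q = 0.0877). HDAC2 had 3501, 3191, 3772 and 3217 in control and 2935, 3212, 2981 and 3124 in OGTi libraries, with a log2 fold change of -0.16 ± 0.08 (SE, q = 0.108). HDAC3, the deacetylase of the NCoR complex, had -0.13 (95% interval -0.28 to 0.02, q = 0.141). HDAC8, which is not a subunit of those complexes and is known to deacetylate the cohesin subunit SMC3, had 520 to 706 in control and 450 to 522 in OGTi libraries, so the groups overlapped, with a log2 fold change of -0.31 ± 0.13 (SE, q = 0.0338). Its call was lost without replicate 2 (q = 0.122), replicate 3 (q = 0.290) or replicate 4 (q = 0.0769).

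Class IIa HDACs have little catalytic activity of their own and act as signal-dependent repressors of MEF2 factors. HDAC7 (chr12:47782722-47833132) had 7476, 8072, 7258 and 7941 normalized counts in control and 5569, 6009, 6079 and 5519 in OGTi libraries. It was lower in every OGTi library than in any control library and its level fell by 24.6% (log2 fold change -0.41 ± 0.07, SE, q = 5.81e-08). HDAC9 moved the other way, from 190, 300, 430 and 449 in control to 341, 407, 432 and 579 in OGTi libraries. The groups overlapped but each OGTi library exceeded the control library of its number, and the log2 fold change was 0.41 ± 0.15 (SE, q = 0.0166). With no replicate block HDAC9 was not called (0.36, q = 0.207), and the call was also lost without replicate 1 (q = 0.169), 2 (q = 0.0833) or 4 (q = 0.0824). HDAC4 and HDAC5 were not called, at 0.07 (q = 0.709) and -0.10 (q = 0.329).

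The class IIb enzyme HDAC6 (chrX:48801377-48824982), which deacetylates tubulin and other cytoplasmic proteins, had 2282, 1837, 1866 and 1887 normalized counts in control and 2547, 2693, 2963 and 2526 in OGTi libraries. The highest control library, replicate 1, remained below the lowest OGTi library, and the log2 fold change was 0.45 ± 0.09 (SE, q = 6.22e-06). HDAC10, the other class IIb gene, which deacetylates polyamines, had a log2 fold change of 0.01 (95% interval -0.21 to 0.23, q = 0.956). HDAC10 shares exonic sequence on its own strand with MAPK12, as do KAT2A and HDAC8 with other annotated genes. The counts of HDAC10, KAT2A and HDAC8 are uncertain for that reason, although whole in every library. How shared reads were assigned was not tested. HDAC11 (chr3:13479724-13506424), the class IV enzyme, went from 435, 448, 471 and 440 to 298, 284, 374 and 330 normalized counts. It fell by 28.7%, again without overlap (-0.49 ± 0.13, SE, q = 7.49e-04).

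The sirtuins among the 34 genes are NAD+-dependent deacylases of the nucleus (SIRT1, SIRT6, SIRT7), cytoplasm (SIRT2) and mitochondria (SIRT3, SIRT5). SIRT2 (chr19:38878555-38899862) had 3720, 3317, 2995 and 3608 normalized counts in control and 4385, 4254, 5307 and 4981 in OGTi libraries. The groups were separate, and the rise was 38.6% (log2 fold change 0.47 ± 0.09, SE, q = 2.08e-06). SIRT5 (chr6:13574227-13615158), which removes succinyl and malonyl groups, had 153, 126, 125 and 106 in control and 242, 252, 198 and 222 in OGTi libraries. Every OGTi library was above every control library, and SIRT5 had the largest log2 fold change of the 34 genes, 0.85 ± 0.18 (SE, 95% interval 0.49 to 1.21, q = 2.16e-05). SIRT3, the main mitochondrial deacetylase, had 294, 247, 240 and 223 in control and 319, 318, 377 and 343 in OGTi libraries (0.44 ± 0.15, SE, q = 0.0119), a call that was lost without replicate 3 (q = 0.118) or 4 (q = 0.121). SIRT1 had 523, 644, 598 and 530 in control and 728, 739, 589 and 716 in OGTi libraries. OGTi replicate 3 fell within the control range, and the log2 fold change of 0.27 ± 0.12 was near the threshold (SE, q = 0.0478). It missed the threshold with independent filtering off (q = 0.0507) and without replicate 1 (q = 0.246), 2 (q = 0.115) or 4 (q = 0.264). SIRT6 and SIRT7 were not called, at 0.07 (q = 0.641) and 0.17 (q = 0.282), and SIRT7 shares exonic sequence with MAFG. The mitochondrial pair SIRT3 and SIRT5 had fractional counts in 7 of 8 libraries, which arise where reads with several alignments were divided between genes. This was not particular to the pair, since NCOR1 also had fractional counts in 7 libraries, HDAC4 in 6, KAT5 in 5 and TAF1 in 4.

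BRD2 (chr6:32968594-32981505) had the largest Wald statistic, the log2 fold change divided by its standard error, of the 34 genes. BET proteins bind acetylated histone tails through paired bromodomains and bring elongation factors to promoters. BRD2 had 11059, 12997, 11469 and 12343 normalized counts in control and 19448, 21009, 22566 and 21662 in OGTi libraries. The lowest OGTi library was far above the highest control library, and the rise of 77.0% corresponded to a log2 fold change of 0.82 ± 0.07 (SE, 95% interval 0.69 to 0.96, q = 9.46e-32). BRD3 had 2379, 2872, 2479 and 2457 in control and 2569, 2533, 2909 and 2645 in OGTi libraries, which overlapped (0.07, 95% interval -0.10 to 0.23, q = 0.555). NCOR1, the scaffold that activates HDAC3, had 6481 to 7830 in control and 7216 to 7740 in OGTi libraries (0.06, 95% interval -0.09 to 0.20, q = 0.553).

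Ratios of paralogs within a library do not depend on the scaling of libraries, and 6 ratios were compared with a two-sided exact permutation test over the 8 libraries. The smallest p that 4 against 4 libraries allow is 0.0286, which adjustment over the 6 ratios raised to 0.0572 for 3 ratios at that p. The ratio of BRD2 to BRD3 was 4.53 to 5.02 in control and 7.57 to 8.29 in OGTi libraries, without overlap (log2 ratio higher by 0.76, exact p = 0.0286, adjusted p = 0.0572). That of KAT2A to KAT2B was 2.69 to 3.20 in control and 4.41 to 5.50 in OGTi libraries, also without overlap (higher by 0.73, exact p = 0.0286, adjusted p = 0.0572). That of KAT6A to KAT6B was 4.01 to 4.53 and 5.95 to 6.52 (higher by 0.57, exact p = 0.0286, adjusted p = 0.0572). In these 3 pairs all 4 replicate pairs had the same sign. The EP300 to CREBBP ratio overlapped between groups, at 0.730 to 0.837 in control and 0.811 to 1.05 in OGTi libraries (higher by 0.23, exact p = 0.0571, adjusted p = 0.0857). The log2 ratio of HDAC1 to HDAC2 differed by -0.12 (exact p = 0.371, adjusted p = 0.445) and that of NCOA1 to NCOA2 by -0.01 (exact p = 0.914, adjusted p = 0.914). Paired by replicate number, the exact sign-flip test cannot go below 0.125, its value for the first 4 of these ratios.

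**Figure D3:**
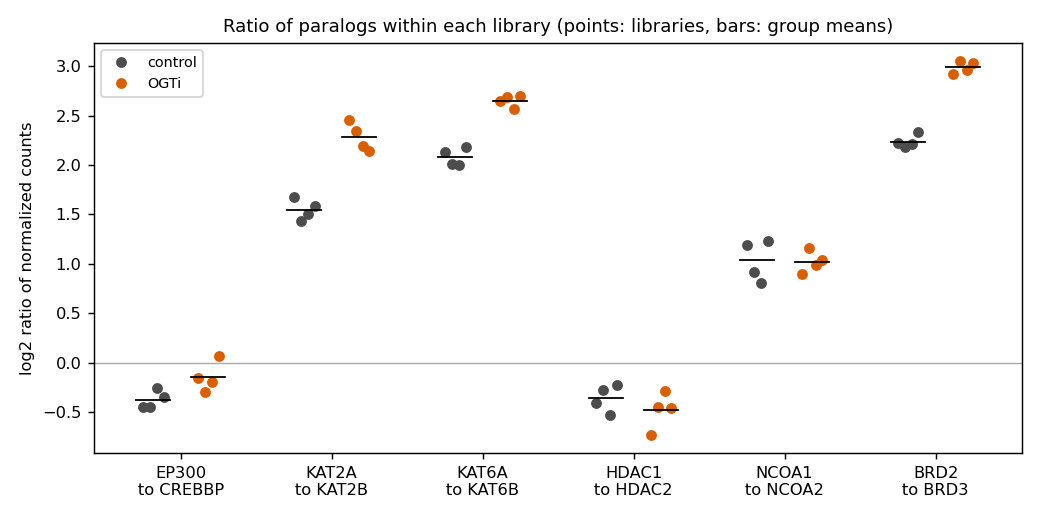
Log2 ratio of normalized counts of paralogs in each library, control in grey and OGTi in orange, with a line at the mean of 4 libraries. The groups are apart for KAT2A to KAT2B, KAT6A to KAT6B and BRD2 to BRD3, where OGTi ratios are higher, and they overlap for the other 3 pairs.

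Levels can be compared between genes only per length, here as normalized counts per kilobase of merged exons. BRD2 had the highest level in control, 1330 ± 96.8 (SD, n = 4), and in OGTi libraries, 2350 ± 146. HDAC7 (774 ± 38.6), the HDAC with the highest level, and HDAC1 (670 ± 15.4) followed in control, each separate from its neighbours in the order. KAT2A (554 ± 33.8), SIRT2 (549 ± 52.4) and HDAC3 (545 ± 52.7) came next, and these overlapped. In OGTi libraries SIRT2 took place 2 at 762 ± 80.1 and HDAC7 place 4 at 584 ± 29.3. KAT5 moved from place 11 of 34 (349 ± 8.69) to place 14 (220 ± 12.7), and KAT2B from place 20 (138 ± 15.6) to place 26 (92.2 ± 5.70). The lowest levels in control were those of HDAC8 (25.7 ± 3.55), HDAC9 (19.8 ± 7.02) and SIRT5 (11.3 ± 1.71), each of which overlapped its neighbour. Of the 33 pairs of neighbours in the control order, 7 did not overlap in their libraries. The order depended on the length used. Per kilobase of the longest transcript HDAC3 took place 2 in control at 1290 and KAT6B, whose merged exons are long, was at place 28 instead of 31.

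**Figure D4:**
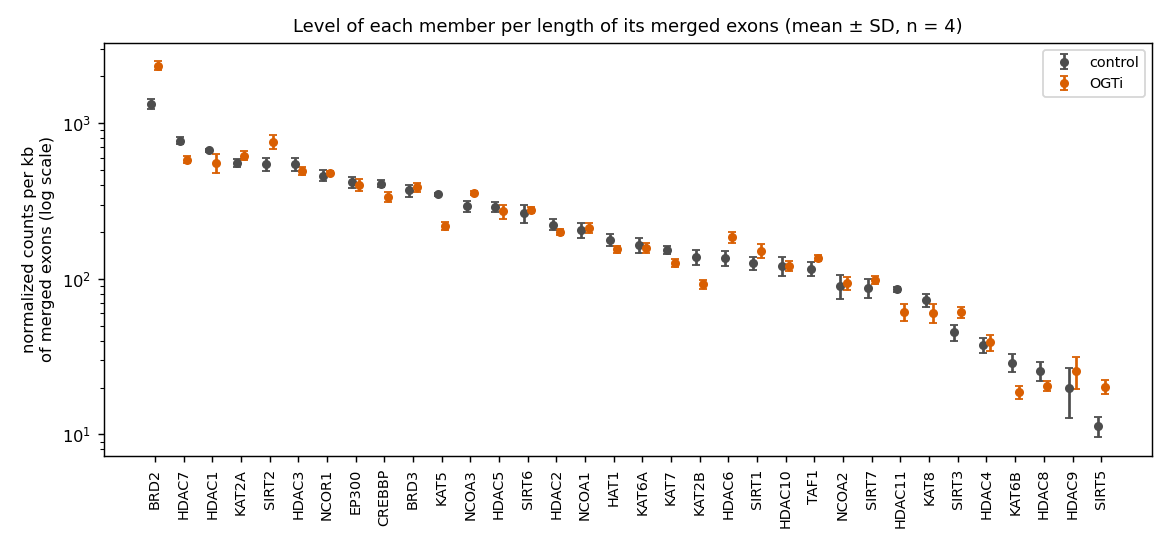
Normalized counts per kilobase of merged exons on a log axis, with genes in the order of their control level, as mean ± SD of 4 control (grey) and 4 OGTi (orange) libraries. BRD2 is highest in both groups, and SIRT5 is lowest in control at 11.3 and rises to 20.2 in OGTi libraries.

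The partners and cofactors of these enzymes were listed by complex, 151 genes in all, of which 150 were tested (BRDT, a testis BET gene, was not). With a q for 148 of them, 78 were called (52.7%), 18 higher (12.2%) and 60 lower (40.5%), beside 22.7% and 24.0% of all genes, and their median log2 fold change was -0.13. Among SAGA and ATAC subunits 2 of 21 were called higher (9.52%) and 8 lower (38.1%). The adaptor TADA2A went from 482 ± 50.3 to 284 ± 22.3 normalized counts (SD, n = 4; log2 fold change -0.76, q = 6.21e-08), and the ATAC subunits DR1 and MBIP had log2 fold changes of -0.43 and -0.42. Of 16 NuA4 subunits, the complex of KAT5, 0 were called higher and 7 lower (43.8%). ING3, which binds methylated histone H3, went from 393 ± 37.7 to 197 ± 33.8 (-1.01, q = 1.35e-08), EPC2 had -0.54 and MEAF6 -0.40. Of 16 MYST scaffolds 1 was called higher (6.25%) and 7 lower (43.8%). MCRS1, a subunit of the NSL complex of KAT8, had the largest fall among the partners, from 2343, 2489, 2656 and 2583 in control to 815, 803, 867 and 787 in OGTi libraries (-1.62 ± 0.08, SE, q = 4.70e-82). MSL1 and JADE1, scaffolds of KAT8 and KAT7, both had -0.51.

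Among 11 partners of p300, CBP and the p160 proteins, 0 were called higher and 4 lower (36.4%), beside 22.7% and 24.0% of all genes. The arginine methyltransferase CARM1 went from 4775 ± 418 to 2651 ± 196 normalized counts (SD, n = 4; -0.85, q = 2.47e-32). CITED2, which binds p300 and CBP, had -0.64 and the coactivator NCOA6 -0.52. Of 29 genes of the class I HDAC complexes, 6 were called higher (20.7%) and 13 lower (44.8%). Within the NCoR complex the directions differed, since GPS2 went from 3897 ± 365 to 6762 ± 383 (0.80, q = 1.11e-21), whereas TBL1XR1 went from 998 ± 93.9 to 498 ± 22.1 (q = 3.14e-20) and TBL1X had -0.71. Of 17 class IIa partners and kinases with a q, 0 were called higher and 8 lower (47.1%). The 14-3-3 genes YWHAE, YWHAZ and YWHAB had -0.67, -0.60 and -0.58.

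Among the 21 other acetyl-lysine readers and BET partners with a q, 4 were called higher (19.0%) and 7 lower (33.3%). Over all genes these shares were 22.7% and 24.0%. HEXIM1, which holds the elongation factor P-TEFb inactive, had 1562, 1588, 1309 and 1289 normalized counts in control and 4144, 4673, 4127 and 4142 in OGTi libraries. It had the largest rise among the partners called, with a log2 fold change of 1.58 ± 0.08 (SE, q = 2.00e-85). The bromodomain remodelling subunits BAZ1A and BAZ1B had 0.54 and -0.36. Of 10 acetyl-CoA supply genes 3 were called higher (30.0%) and 4 lower (40.0%). ACLY and ACSS2, which make cytosolic and nuclear acetyl-CoA, and SLC33A1, which carries it into the endoplasmic reticulum, had 0.46, 0.66 and 0.71, with groups that did not overlap. The 4 called lower, DLD, PDHB, PDHA1 and DLAT, encode subunits of the mitochondrial pyruvate dehydrogenase complex, and for DLAT the groups overlapped. PDHX, a further component of that complex on the list, was not called, with a log2 fold change of 0.07 (q = 0.637). Of 7 NAD supply genes 2 were called higher (28.6%) and 2 lower (28.6%). NAMPT, the main enzyme of NAD salvage, had 0.51, NMNAT1 had 0.59, and NNMT, which methylates nicotinamide, went from 1237 ± 192 to 662 ± 190 (SD, n = 4; -0.93, q = 4.73e-14).

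**Figure D5:**
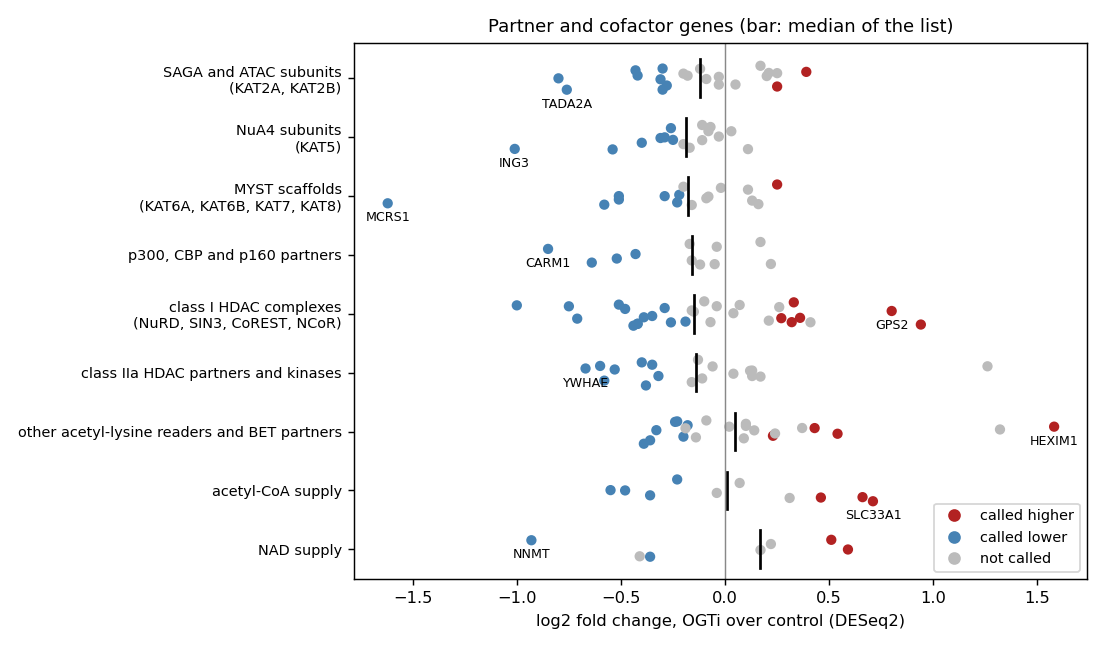
Log2 fold change of OGTi over control for the tested partner and cofactor genes by list, with red points called higher, blue points called lower, grey points not called, and a line at the median of the list. The gene with the largest absolute Wald statistic is named in each list. Blue points outnumber red ones in every list but NAD supply, which has 2 of each, MCRS1 lies farthest to the left and HEXIM1 farthest to the right.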

How the data were processed

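RNA was sequenced from both ends in 8 libraries made after oligo-dT enrichment with a stranded protocol. The labels call them biological replicates. P-values of the main DESeq2 model rest on the spread left after replicate differences are fitted. The permutation p-values of the ratios ignore the pairing. Per the labels and the methods, the authors aligned reads to hg38 with Bowtie2 2.3.5.1 and counted them per gene with RSEM 1.3.1. The deposited values are expected counts, not scaled for depth, in which reads with several alignments are divided between genes, so that genes with similar copies carry fractional values. Such values occurred in 11 of the 34 genes. The authors' deposited table of DESeq2 1.36.0 fold changes and p-values was not used.

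Expected counts were rounded, genes with a total under 10 were left out, and the remaining 14895 were fitted in R 4.3.3 with DESeq2 1.42.0, with replicate number as a block and median-of-ratios size factors, adjusting over all genes. Of these, 14028 had an adjusted p-value after independent filtering. The fits were tested on simulated data. The study's methods pair samples of the same replicate. Deviations from the group mean correlated between same-numbered libraries (0.372, 0.391, 0.165 and 0.327 for replicates 1 to 4, across 10994 genes, which are not independent), although control replicate 3 was closer to OGTi replicate 4 (0.343). Alternatives were edgeR 4.0.16, other scaling, filters, no block and leaving out each replicate. Values in every library are given for the 12 genes with the largest Wald statistics and the paralog pairs, and for further called genes chosen after their values were seen, and from each partner list the 3 genes with the largest Wald statistics are named. DLD, PDHB, PDHA1, DLAT and PDHX were named after their values were seen. The members and all lists were chosen with earlier results of these data known. Lengths and positions come from GENCODE release 44, promoters from RefSeq.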

Additional observations from a re-analysis of the deposited data

Results flagged for a closer look

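In 140 groups of 4 libraries, a library far from the other 3 was found 9 times, and chance alone gives about 1 in 20, or 7.0. Among the histone acetylation genes, OGTi replicate 2 was low for KAT6A, with 3388 normalized counts where the remaining OGTi libraries had 3930 to 4032. HDAC8 had 522 in OGTi replicate 1 against 450 to 462. HDAC5 had 2436 in control replicate 2 against 2116 to 2166. HDAC6 had 2282 in control replicate 1 against 1837 to 1887. SIRT1 had 589 in OGTi replicate 3 against 716 to 739. Among the partner genes, control replicate 1 stood apart for MBIP (1153 against 955 to 984), EPC2 (762 against 928 to 952) and CITED2 (16400 against 19618 to 19918). HEXIM1 had 4673 in OGTi replicate 2 against 4127 to 4144.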

How the results depend on the processing

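The count of the 34 genes called, 18, was 17 with no replicate block in DESeq2 and in edgeR, 19 in edgeR with the replicate block, 18 with TMM factors, with no filter and with a stricter filter, 17 with independent filtering off, and 12 to 16 when 1 replicate was left out. The share of all genes called also fell when 1 replicate was left out, from 46.6% to between 37.3% and 40.5%. The 9 genes called higher became 5 to 8 when 1 replicate was left out, the fewest without replicate 4. The median change of the 34 genes, 0.03, was -0.05 to 0.03 when 1 replicate was left out. Over all 11 alternatives 11 genes kept their call (KAT2B, KAT5, KAT6B, KAT7, NCOA3, HDAC7, HDAC6, HDAC11, SIRT2, SIRT5 and BRD2), and 7 lost it in at least 1 (CREBBP, TAF1, HDAC1, HDAC8, HDAC9, SIRT1 and SIRT3). KAT8 gained a call in 1. With no replicate block the call of HDAC9 was the only one of the 18 that changed. Signs of uncalled genes turned when 1 replicate was left out: EP300 ranged from -0.14 to 0.0023, NCOA2 from -0.04 to 0.16, HDAC4 from -0.08 to 0.14, HDAC10 from -0.03 to 0.06, SIRT6 from -0.04 to 0.16 and NCOR1 from -0.0073 to 0.09. The cause was not tested. Levels per kilobase were higher for every gene with the longest transcript in place of merged exons, because that length is shorter. With 4 libraries a group, changes of uncalled genes were bounded by 95% intervals reaching at most -0.54 and 0.41 on the log2 scale.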
